A study of Mus musculus with 18 samples.

Results

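Induced cardiomyocyte-like cells (iCMs) are fibroblasts converted towards heart muscle cells without passing through a stem cell state. The comparison described here set the profile of 4-week iCMs against that of neonatal cardiomyocytes, over all genes, to measure how far the converted cells still lay from the cell type they were steered towards. It used 6 of the 18 arrays in the series: the 3 arrays titled as 4-week iCMs and the 3 titled as neonatal cardiomyocytes. All cells came from CD1 mice, and 19912 genes were compared.

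The 4-week iCMs were GFP+ cells described as fibroblasts in which reprogramming had succeeded, and the neonatal cardiomyocytes were heart muscle cells from newborn mice with no listed treatment. Values from 2-week iCMs, from GFP- cells in which reprogramming had failed after 4 weeks, and from neonatal cardiac fibroblasts are given beside them where they show the range of a gene. The labels name neither the factors introduced nor the promoter that drives GFP, and they give no exact age, sex or number of animals. Published iCM work of this kind introduced Gata4, Mef2c and Tbx5 and read conversion from GFP under the Myh6 promoter, and a sort on such a reporter selects for Myh6 activity. The labels do not say how the cardiomyocytes were purified, and they had no listed GFP sort. Each group holds 3 biological replicates according to its submitters. Whether these were separate cultures is not in the labels, and if they were not, the p-values cover only technical spread.

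Heart muscle contracts when calcium released from the sarcoplasmic reticulum lets myosin of the thick filament pull on actin of the thin filament, and both filaments are anchored at the Z-disc. Atrial and ventricular cells use different myosin light chains, and around birth the heart exchanges fetal isoforms for adult ones, gives up cell division and turns from glucose to fatty acids as its fuel. A converted fibroblast can therefore be compared with a cardiomyocyte part by part: filaments, calcium handling, chamber identity, fuel use, and what it kept of its earlier life.

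Expression was measured on Affymetrix Mouse Gene 1.0 ST arrays, and all levels below are log2 intensities, so that a difference of 1 is a 2-fold difference. Median intensities of the 18 arrays ran from 7.32 to 7.45. Across genes, arrays correlated at r = 0.993 to 0.995 within the 4-week iCMs and at r = 0.992 to 0.993 within the cardiomyocytes, against r = 0.933 to 0.936 between a 4-week iCM array and a cardiomyocyte array. Where all 3 arrays of a group read under 6.16 for a gene (the 25th percentile of probe sets on the array where it was lowest), the gene is described as not above background in that group and its fold difference as a lower bound.

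Against cardiomyocytes, 6989 of the 19912 genes (35.1%) differed in 4-week iCMs at an adjusted p under 0.05 in limma, and these are the genes called changed below. Of all genes, 3781 (19.0%) were higher and 3208 (16.1%) lower. At least a 2-fold difference was reached by 865 higher and 795 lower genes, at least 8-fold by 66 and 62, and at least 16-fold by 14 and 15. The 3 arrays of the groups did not overlap for 8657 genes (43.5%), which is the background for such statements about single genes. The median difference of all genes was -0.01.

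**Figure D1:**
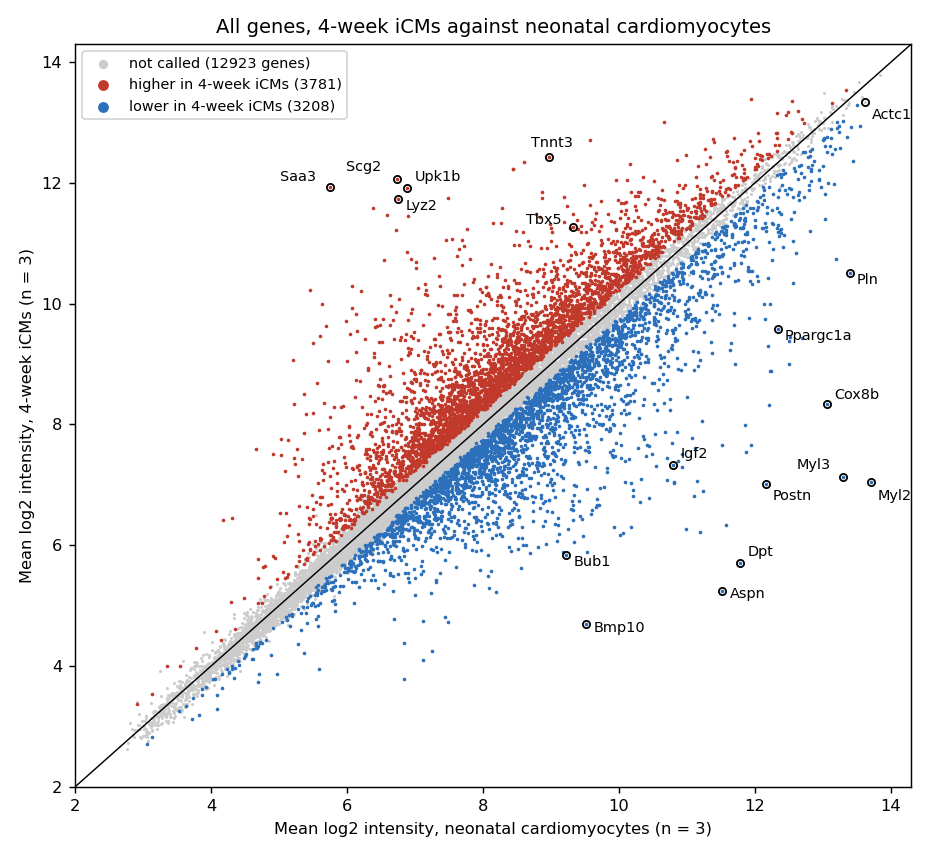
Mean log2 intensity of every gene in 4-week iCMs (vertical axis) against its mean in neonatal cardiomyocytes (horizontal axis), 3 arrays each, with called genes in colour and the line of equal values in black. Myl2, Myl3, Postn, Dpt and Aspn lie far under the line, Saa3, Scg2, Upk1b and Lyz2 far above it, and Actc1 lies close to it near the top of the scale.

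Myl2, Myl3, Actc1 and Myl7 span the range of outcomes among filament genes and are shown first with the DNA just upstream of their start sites. Myl2 and Myl3, the ventricular regulatory and essential light chains, were among the 15 largest falls of all genes, whereas Actc1, cardiac alpha-actin, and Myl7, the atrial regulatory light chain, were not called. The windows hold the 250 bases before the annotated start in RefSeq (mouse build GRCm38.p6), written 5′ to 3′ on the strand of the gene: Myl2 at chr5:122092939-122093188 on the plus strand, Myl3 at chr9:110763428-110763677 on the plus strand, Actc1 at chr2:114052876-114053125 on the minus strand and Myl7 at chr11:5898783-5899032 on the minus strand. Myl2 has 2 annotated starts, and the window of the one further downstream is shown. Capitals mark matches to the searched motifs.
Myl2: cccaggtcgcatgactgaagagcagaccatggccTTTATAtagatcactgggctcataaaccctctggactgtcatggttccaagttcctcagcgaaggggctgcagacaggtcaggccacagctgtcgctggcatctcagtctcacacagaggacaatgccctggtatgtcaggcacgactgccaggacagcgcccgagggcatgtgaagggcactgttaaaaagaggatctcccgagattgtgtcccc
Myl3: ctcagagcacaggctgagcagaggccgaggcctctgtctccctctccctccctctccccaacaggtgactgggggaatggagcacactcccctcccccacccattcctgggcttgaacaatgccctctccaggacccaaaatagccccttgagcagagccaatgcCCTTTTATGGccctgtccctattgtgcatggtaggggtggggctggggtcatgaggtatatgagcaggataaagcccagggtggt
Actc1: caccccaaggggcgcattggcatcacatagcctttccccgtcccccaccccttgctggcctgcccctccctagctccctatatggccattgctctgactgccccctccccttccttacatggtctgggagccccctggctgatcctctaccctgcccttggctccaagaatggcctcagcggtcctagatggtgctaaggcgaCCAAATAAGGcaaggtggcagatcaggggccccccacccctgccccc
Myl7: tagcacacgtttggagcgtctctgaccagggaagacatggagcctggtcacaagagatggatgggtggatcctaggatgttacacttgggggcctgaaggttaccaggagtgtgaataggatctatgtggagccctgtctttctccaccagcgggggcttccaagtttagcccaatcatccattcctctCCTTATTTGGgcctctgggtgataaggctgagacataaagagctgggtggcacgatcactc

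The motifs, searched on both strands, were the CArG box, to which serum response factor is known to bind, the MEF2 site, a GATA site spelled AGATAA, a site for T-box factors spelled AGGTGT, and the core promoter element spelled TATAAA. The last of these can lie within a MEF2 site. With the last base before the start counted as -1, a CArG box stood at -85 to -76 in the Myl3 window, at -47 to -38 in that of Actc1 and at -61 to -52 in that of Myl7. The match in the Myl2 window was only to the letters TATAAA, on the opposite strand at -216 to -211. Of all 32851 promoter windows of this length, 1.47% held a CArG box and 2.92% a MEF2 site. The GATA site was in 9.99%, the T-box site in 11.8% and the letters TATAAA in 12.4%, on either strand. Among the 25 filament genes with a window, 6 held a CArG box (24.0%, against 1.62% of the 27025 genes with a window). Of these 6, Myl3, Nebl and Myom1 were lower in 4-week iCMs, and Actc1, Myl7 and Acta1 were not called. Myom1, the M-band protein myomesin (-1.68 ± 0.22), and 19 other genes below that complete a small count or are singled out fall outside the rule for named genes and were chosen after their values were seen: Ankrd1, Flnc, Xirp2, Jup, Vcl, Dsp, Hcn4, Kcnj5, Sln, Ppard, Flt1, Eng, Cd163, Trem2, Cxcl12, Il6, Tbx20, Pparg and Cdkn1c. The letters are descriptions of the windows, and binding was not measured.

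Within the thick filament and M-band, 11 of 15 genes fell and 0 rose, with a median difference of -1.07. Myl2 had intensities of 7.04, 7.03 and 7.09 in 4-week iCMs, against 13.68, 13.72 and 13.70 in cardiomyocytes. The 4-week iCMs lay near the level of fibroblasts (mean 7.38), and the difference was -6.65 ± 0.08 (SE), at least 100-fold (limma, adjusted p = 2.21e-21). The size is given as a lower bound because the cardiomyocyte values lie close to the highest on the 6 arrays compared (13.84 to 13.86). Myl3 was at 7.19, 7.10 and 7.12 in 4-week iCMs, against 13.38, 13.30 and 13.21 in cardiomyocytes, a difference of -6.16 ± 0.10 (adjusted p = 2.81e-19), again beside a fibroblast mean of 6.97. Myh7, the beta-myosin heavy chain of the fetal heart and of slow-twitch skeletal muscle, had 7.59, 7.63 and 7.41 in 4-week iCMs, against 11.91, 11.79 and 11.88 in cardiomyocytes. That was 19.9-fold lower (-4.32 ± 0.08, adjusted p = 1.42e-18). Mylk3, the kinase that phosphorylates cardiac regulatory light chain, was lower by 9.8-fold (-3.29 ± 0.10). In these 4 genes the arrays of the groups lay far apart, with no overlap.

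Among the other myosin genes Myh6 fell by less, and Myl7 and Myl4 were not called. Myh6, the alpha-myosin heavy chain, had 12.09, 12.02 and 11.89 in 4-week iCMs, against 13.17, 12.96 and 13.08 in cardiomyocytes, so that its fall of -1.07 ± 0.21 (adjusted p = 0.000352) left it far above fibroblasts (mean 6.70). Myl7 was at 12.98, 13.09 and 13.00 in 4-week iCMs, against 12.84, 13.02 and 12.98 in cardiomyocytes, with overlapping arrays and a difference of 0.07 ± 0.16 (adjusted p = 0.793). The atrial essential light chain Myl4 was at 13.40, 13.55 and 13.51 in 4-week iCMs, against 12.93, 13.05 and 13.06 in cardiomyocytes. Its difference of 0.47 ± 0.25 did not pass in the fit over all groups (adjusted p = 0.167), but passed, with higher values in 4-week iCMs, when the 6 arrays were fitted alone (adjusted p = 0.00164). In bulk samples such as these, fewer cells with a transcript and less transcript per cell cannot be told apart.

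Of the 13 thin-filament genes, 9 fell and 0 rose (median -0.70). Actc1 had 13.30, 13.40 and 13.29 in 4-week iCMs, against 13.68, 13.60 and 13.56 in cardiomyocytes. The difference of -0.28 ± 0.26 was not called (adjusted p = 0.488), although the arrays did not overlap and the fit of the 6 arrays alone called it lower (adjusted p = 0.0385). Tnnt2, cardiac troponin T, lay at 13.76, 13.78 and 13.83 in 4-week iCMs, against 13.85, 13.82 and 13.85 in cardiomyocytes, with overlapping arrays and a difference of -0.05 ± 0.16 (adjusted p = 0.862). Both genes, like Myl2 in cardiomyocytes, were near the highest values of these arrays. Tnni1, the fetal troponin I, was at 7.78, 7.53 and 7.67 in 4-week iCMs, against 11.73, 11.54 and 11.27 in cardiomyocytes, and its fall of -3.86 ± 0.13 (adjusted p = 8.5e-15) left it near fibroblasts (mean 6.94). The adult partner Tnni3 fell by less (-1.08 ± 0.14, 12.37 in 4-week iCMs against 13.45 in cardiomyocytes). Nebl, the cardiac nebulette, fell by 2.89 ± 0.11, the filament-end cap Tmod1 by 2.41 ± 0.12, and leiomodin Lmod3, which starts new actin filaments, by 2.37 ± 0.12 log2 units (limma, adjusted p = 3.68e-14, 2.98e-12 and 4.9e-12). The probe sets of Nebl and Tmod1 disagree in size: a second one differed by -1.46 for Nebl, and by -0.13 for Tmod1, where it was not called (adjusted p = 0.307). Acta1, skeletal alpha-actin, did not pass (0.09 ± 0.10, adjusted p = 0.565).

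**Figure D2:**
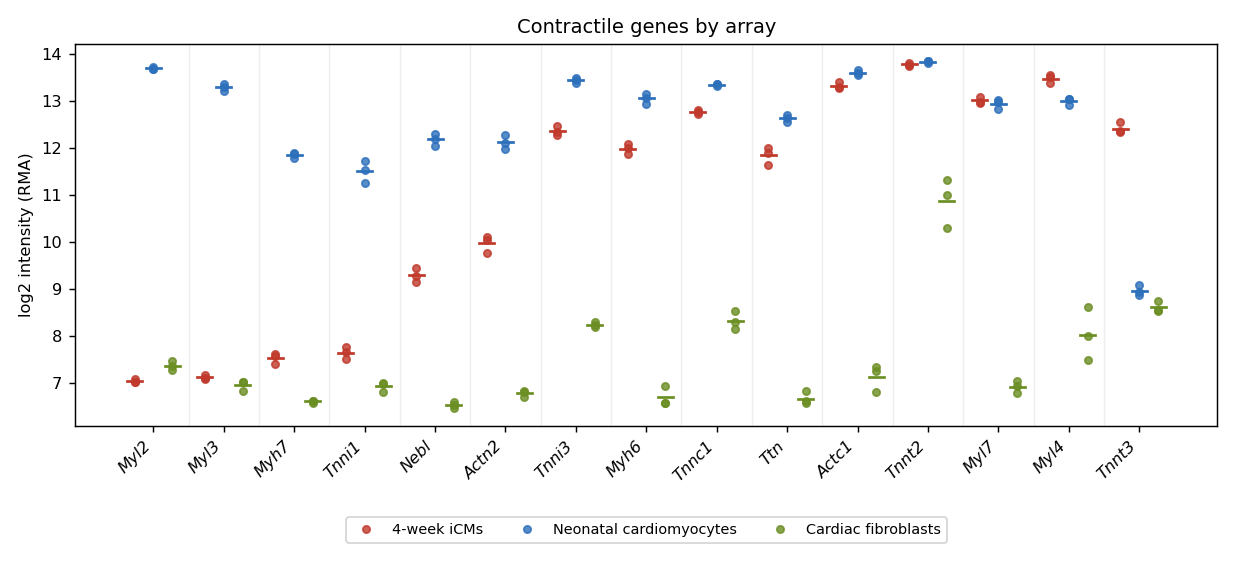
Log2 intensity of 15 contractile genes on each array of 4-week iCMs, neonatal cardiomyocytes and cardiac fibroblasts, with a bar at each group's mean. Myl2, Myl3, Myh7 and Tnni1 of 4-week iCMs sit near the fibroblasts, Actc1, Tnnt2, Myl7 and Myl4 sit near the cardiomyocytes, and Tnnt3 lies above the other groups.

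In the Z-disc and costamere list, 17 of 24 genes fell and 3 rose (median -0.94). Actn2, the alpha-actinin that cross-links actin at the Z-disc, had 10.06, 10.12 and 9.78 in 4-week iCMs, against 12.29, 12.12 and 11.99 in cardiomyocytes. Its fall of -2.15 ± 0.12 (adjusted p = 1.36e-11) placed it between cardiomyocytes and fibroblasts (mean 6.79). Nrap, a scaffold of growing myofibrils, fell by 2.97 ± 0.14, the melusin gene Itgb1bp2 by 2.70 ± 0.11 and the muscle caveolin Cav3 by 2.08 ± 0.12. Among the 15 largest falls of all genes, Trim55, a ubiquitin ligase of the M-band region, was 37.8-fold and Klhl41, a protein that stabilises nebulin in skeletal muscle, 19.4-fold lower. Apobec2, a muscle member of the cytidine deaminase family, fell by 4.28 ± 0.12 log2 units, and Fsd2 fell by 4.33 ± 0.10. The 3 genes of the list that rose were the stress-responsive ankyrin repeat protein Ankrd1 (0.69 ± 0.16), the actin cross-linking filamin Flnc (0.54 ± 0.12) and Xirp2 (0.73 ± 0.20), an actin-binding protein of myofibril attachments.

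Skeletal muscle genes were mixed, with 5 of 24 higher and 3 lower, shares near those of all genes (19.0% and 16.1%). The number lower was 5 with either other normalization, with the low-signal filter, and without iCM replicate 1 or cardiomyocyte replicate 2. Tnnt3, the fast skeletal troponin T, had 12.37, 12.34 and 12.56 in 4-week iCMs, against 8.95, 8.88 and 9.09 in cardiomyocytes. It was 10.9-fold higher in 4-week iCMs (3.45 ± 0.12, adjusted p = 9.94e-15), and also lay above fibroblasts (mean 8.62) and 4-week GFP- cells (8.51). Pvalb, parvalbumin, a calcium buffer of fast fibres and of some neurons, was at 10.98, 10.99 and 10.61 in 4-week iCMs, against 6.93, 6.86 and 6.86 in cardiomyocytes (15.8-fold higher, adjusted p = 2.46e-11). The fast light chain Myl1 and the fast alpha-actinin Actn3 rose by 1.11 ± 0.20 and 1.00 ± 0.12. Casq1, the calsequestrin of fast skeletal muscle, went the other way, with 7.62 in 4-week iCMs and 11.12 in cardiomyocytes (-3.50 ± 0.13).

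Ventricular-enriched genes were the list with the lowest median, -3.02: 8 of 9 fell and 0 rose. Its mean over the genes ran from 7.27 to 7.37 on the 4-week iCM arrays, against 10.58 to 10.66 on the cardiomyocyte arrays and 6.68 to 6.74 on the fibroblast arrays. Besides the light chains and Myh7, the list holds Hey2, a repressor that keeps atrial genes off in the ventricle, at 6.25, 6.55 and 6.48 in 4-week iCMs, against 9.29, 9.68 and 9.38 in cardiomyocytes (-3.02 ± 0.13, adjusted p = 6.83e-13). Atrial-enriched genes were lower too, with 9 of 13 called lower and 1 higher, Sln, whose call is described with calcium handling (median -0.89). Nppa, the atrial natriuretic peptide, had 11.21, 11.30 and 11.67 in 4-week iCMs, against 13.05, 13.04 and 13.01 in cardiomyocytes. It fell by 1.64 ± 0.21 (adjusted p = 2.31e-06) and remained far above its mean in fibroblasts, 6.70. Bmp10, a growth factor of the trabeculae and right atrium, was at 4.67, 4.87 and 4.53 in 4-week iCMs, against 9.35, 9.76 and 9.45 in cardiomyocytes. It was not above background in 4-week iCMs, which makes it at least 10.3-fold lower (adjusted p = 1.11e-16). Gja5, the connexin of atrial and conduction cells, was 12.6-fold lower, and Fgf12, an intracellular modulator of sodium channels, fell by 2.80 ± 0.15. A mixture of atrial and ventricular cells in the cardiomyocyte arrays was not measured.

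Calcium handling followed a graded pattern. Of 14 sarcoplasmic reticulum genes, 8 fell and 1 rose (median -0.53). The gene that rose was Sln, sarcolipin, a small inhibitor of the calcium pump (0.76 ± 0.26, adjusted p = 0.0266). Its call was lost with cyclic loess (adjusted p = 0.0594) and without iCM replicate 1 or 2 (0.0852 and 0.0841) or cardiomyocyte replicate 1 or 3 (0.108 and 0.0891). The pump itself, Atp2a2, had 12.99, 13.02 and 12.99 in 4-week iCMs, against 13.11, 13.13 and 13.17 in cardiomyocytes, a difference of -0.14 ± 0.07 (adjusted p = 0.137). Ryr2, the release channel, was at 11.91, 11.91 and 11.84 in 4-week iCMs, against 12.40, 12.49 and 12.43 in cardiomyocytes, so that all 3 4-week iCM arrays lay a little lower (-0.55 ± 0.10, adjusted p = 0.000193) and far above fibroblasts (mean 6.86). Pln, phospholamban, which holds back the pump, had 10.61, 10.72 and 10.20 in 4-week iCMs, against 13.37, 13.43 and 13.38 in cardiomyocytes. It was 7.38-fold lower (-2.88 ± 0.25, adjusted p = 9.1e-09). The calcium-binding Hrc and sarcalumenin (Srl) fell by 2.39 ± 0.21 and 2.31 ± 0.20, and Asph, whose locus also encodes the membrane protein junctin, by 0.80 ± 0.10.

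Ion channels and exchangers fell in 20 of 26 genes and rose in 2 (median -0.85). Abcc9, the sulphonylurea receptor subunit of cardiac ATP-sensitive potassium channels, was at 7.04, 7.06 and 7.09 in 4-week iCMs, against 10.99, 11.27 and 11.18 in cardiomyocytes, 16.9-fold lower (adjusted p = 3.66e-16). Kcne1, a subunit of the slow delayed rectifier, was at least 5.3-fold lower. The Popeye proteins Bves and Popdc2, which bind cyclic AMP and are needed for normal pacemaking, are counted in this list although they are not channels. They fell by 2.14 ± 0.14 and 1.99 ± 0.22. The genes that rose were Hcn4, the pacemaker channel of the sinus node (0.36 ± 0.10, adjusted p = 0.00588), and Kcnj5, a subunit of the atrial muscarinic potassium channel (0.44 ± 0.14, adjusted p = 0.0219). Kcnj5 lost its call with quantile normalization (adjusted p = 0.0515) and without iCM replicate 2 (0.143) or cardiomyocyte replicate 1 or 3 (0.0532 and 0.0586). At the intercalated disc 6 of 13 genes fell and 3 rose. Gja1, the main ventricular connexin, had 10.58, 10.81 and 10.52 in 4-week iCMs, against 11.68, 11.81 and 11.58 in cardiomyocytes (-1.05 ± 0.16, adjusted p = 1.55e-05). The desmosomal cadherins Dsc2 and Dsg2 and the connexin Gjc1 fell by 1.83 ± 0.14, 1.53 ± 0.18 and 1.72 ± 0.12. The 3 that rose link cell junctions to the cytoskeleton: plakoglobin Jup (0.94 ± 0.13), vinculin Vcl (0.92 ± 0.15) and desmoplakin Dsp (0.71 ± 0.10).

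Among cardiac transcription regulators, 14 of 25 fell and 4 rose (median -0.41). The factors used in published iCM work were all higher in 4-week iCMs. Tbx5 had 11.07, 11.32 and 11.40 in 4-week iCMs, against 9.26, 9.39 and 9.30 in cardiomyocytes (1.95 ± 0.11, adjusted p = 1.49e-11), Mef2c rose by 1.54 ± 0.13 and Gata4 by 1.00 ± 0.13 (adjusted p = 5.87e-09 and 2.02e-06). Their probe sets do not tell an introduced copy from the cell's own gene. Tbx20, a T-box factor of cardiac growth, was the other gene that rose (0.45 ± 0.15, adjusted p = 0.025), and lost its call under both other normalizations and without iCM replicate 2 or cardiomyocyte replicate 1 or 3 (adjusted p = 0.0635 to 0.115). Hopx, a homeodomain-only regulator of cardiac growth, was at 7.36, 7.46 and 7.51 in 4-week iCMs, against 10.76, 10.71 and 10.64 in cardiomyocytes, 9.59-fold lower (adjusted p = 1.38e-11). Myocd, the coactivator myocardin that works through serum response factor, lay at 6.61, 6.33 and 6.41 in 4-week iCMs, against 9.18, 9.11 and 9.01 in cardiomyocytes (-2.65 ± 0.10), near its fibroblast mean of 6.06. Prox1, a homeobox factor of the heart, lymphatics and liver, fell by 2.15 ± 0.10. Nkx2-5 had 8.20 against 8.48 and did not pass (-0.28 ± 0.11, adjusted p = 0.0517), though it was called lower under 5 of the alternatives. Its fibroblast mean of 8.06 lies close to both, so this probe set separates the cell types poorly.

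Genes of oxidative metabolism were lower with few exceptions. In fatty acid uptake and oxidation 24 of 28 fell and 0 rose (median -1.31). In pyruvate dehydrogenase and the citrate cycle 17 of 18 fell (median -1.14), and in the respiratory chain and ATP synthase 75 of 80 (median -0.74). No member of these lists rose, while 16.1% of all genes were called lower and 19.0% higher. Of the falls, 19, 12 and 22 reached 2-fold, so most respiratory chain genes changed by less.

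The fatty acid transporter Cd36 had 8.16, 8.63 and 8.17 in 4-week iCMs, against 12.12, 12.27 and 12.24 in cardiomyocytes, 14.8-fold lower (adjusted p = 3.56e-13). It is shared with macrophages and endothelium, and stood at a mean of 11.89 in 4-week GFP- cells. Fabp3, the heart fatty-acid-binding protein, was at 10.60, 10.75 and 10.85 in 4-week iCMs, against 13.22, 13.23 and 13.12 in cardiomyocytes (-2.46 ± 0.13), well above fibroblasts (mean 7.48). Hadha, a subunit of the trifunctional protein of beta-oxidation, and the uncoupling protein Ucp3 fell by 1.76 ± 0.10 and 1.77 ± 0.11. In the citrate cycle, Idh2, mitochondrial isocitrate dehydrogenase, was at 9.37, 9.46 and 9.54 in 4-week iCMs, against 12.51, 12.59 and 12.44 in cardiomyocytes. Its 4-week iCM values lay near those of fibroblasts (mean 9.25), 8.31-fold below cardiomyocytes (adjusted p = 2.72e-15). Idh3a, Ogdh and Mdh1, the cytosolic partner of the malate shuttle, fell by 1.65 ± 0.11, 1.55 ± 0.09 and 1.60 ± 0.10, and Sdhb, a subunit of complex II, by 1.55 ± 0.08.

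Cytochrome oxidase subunits with a muscle and a general form differed in size of change. The muscle form Cox8b had 8.62, 8.56 and 7.82 in 4-week iCMs, against 13.03, 13.14 and 13.01 in cardiomyocytes, 26.6-fold lower (adjusted p = 8.4e-15). Cox7a1 and Cox6a2, the other muscle forms, were 9.52-fold and 8.65-fold lower. Their general partners differed by less. Cox8a (-0.15 ± 0.08, adjusted p = 0.181) and Cox6a1 (0.01 ± 0.07, adjusted p = 0.954) were not called, and Cox7a2 fell by 0.59 ± 0.08 (adjusted p = 5.31e-06). The muscle forms were nonetheless above fibroblasts, at means of 8.33, 9.43 and 9.39 in 4-week iCMs against 6.76, 8.33 and 8.23 in fibroblasts.

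Of 15 regulators of mitochondrial genes, 9 fell and 1 rose. Ppargc1a, the coactivator PGC-1 alpha, was at 9.64, 9.85 and 9.24 in 4-week iCMs, against 12.29, 12.44 and 12.27 in cardiomyocytes (-2.76 ± 0.21, adjusted p = 1.3e-09). The nuclear receptors Esrrg and Ppara fell by 0.82 ± 0.14 and 0.80 ± 0.13, and Tfam, which packages and transcribes mitochondrial DNA, by 0.74 ± 0.12. The gene that rose was the nuclear receptor Ppard (0.41 ± 0.09, adjusted p = 0.00066). In glycolysis, glycogen and phosphocreatine 17 of 31 fell and 7 rose (median -0.28). Ckmt2, the mitochondrial creatine kinase of muscle, was at least 10.4-fold lower, Mb, myoglobin, 11.3-fold and muscle glycogen phosphorylase, Pygm, 7.55-fold.

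Several of the glucose genes divided by isoform as well, but not all in the same way. Muscle creatine kinase Ckm and muscle phosphofructokinase Pfkm fell by 2.18 ± 0.09 and 1.64 ± 0.08, while the brain form Ckb rose by 0.45 ± 0.11 and the platelet form Pfkp did not pass (0.13 ± 0.11, adjusted p = 0.463). The insulin-responsive transporter Slc2a4 fell by 0.86 ± 0.15, and the general transporter Slc2a1 rose by 0.73 ± 0.12 (limma, adjusted p = 0.000137 and 4.51e-05). Pgam1 rose by 0.87 ± 0.10 and its muscle partner Pgam2 did not pass (-0.13 ± 0.13, adjusted p = 0.515), with 12.43, 12.63 and 12.38 in 4-week iCMs, against 12.69, 12.62 and 12.52 in cardiomyocytes. Muscle enolase Eno3 fell by 0.63 ± 0.11. Hexokinase Hk2 rose by 0.51 ± 0.10, Hk1 did not pass (0.08 ± 0.10, adjusted p = 0.624), and the liver-type carnitine palmitoyltransferase Cpt1a fell by 0.59 ± 0.12. Over the 27 genes of this kind with both filament and metabolic isoforms, 14 fell and 4 rose.

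**Figure D3:**
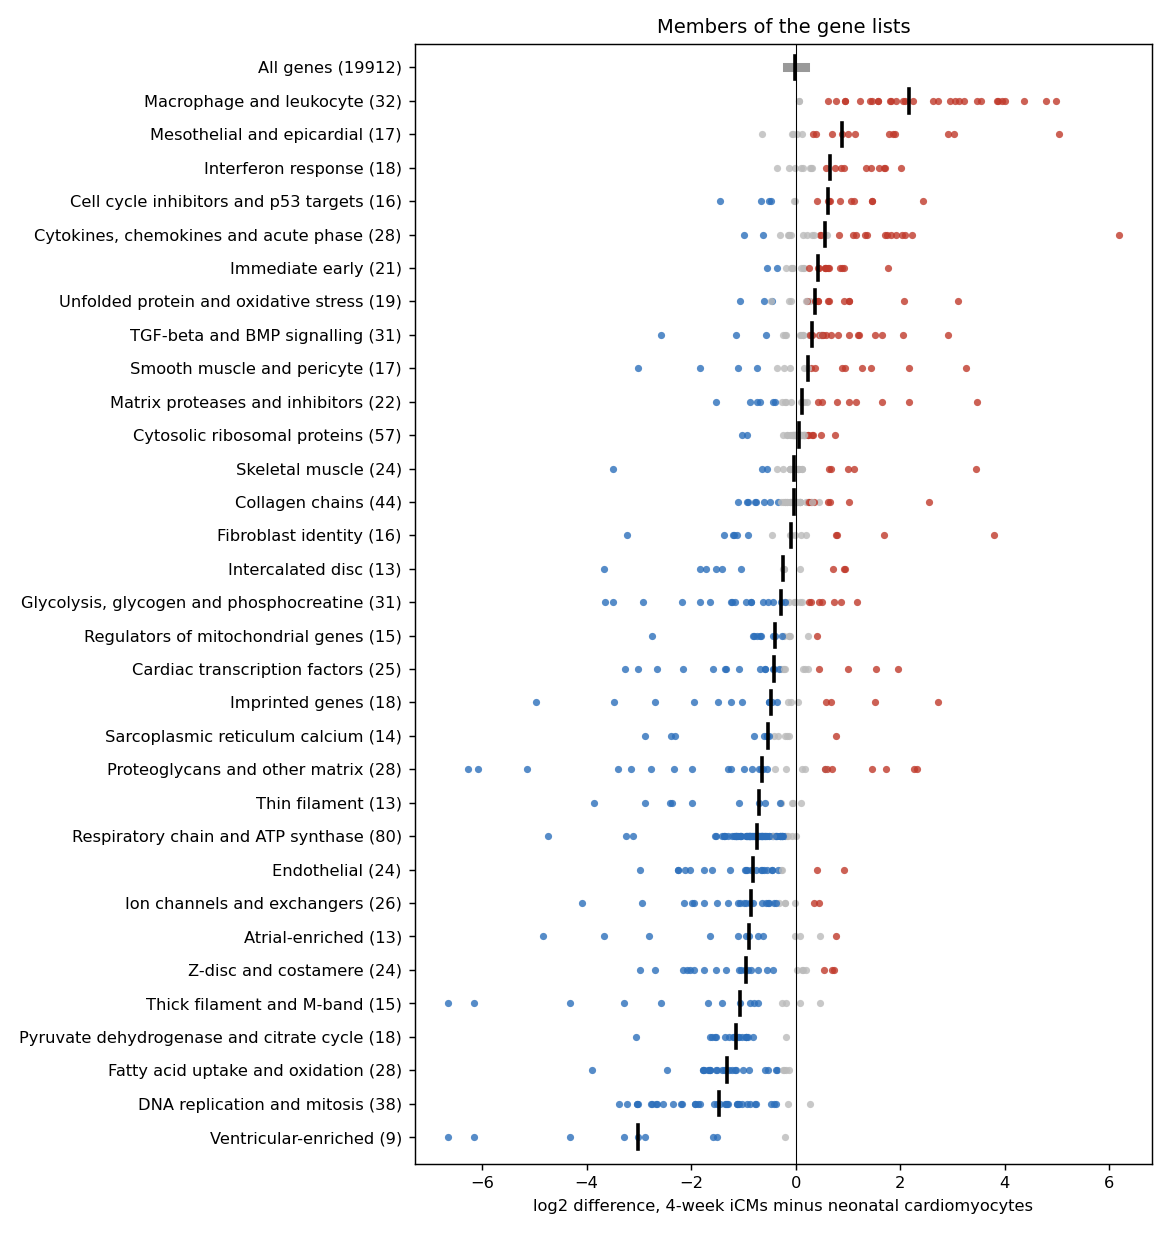
Difference between 4-week iCMs and neonatal cardiomyocytes (log2) for every measured member of 32 gene lists, with the number of genes in brackets. Points are genes, red where called higher, blue where called lower and grey where not called, the black bars are medians, and the grey band on the top row is the range between the quartiles of all genes. Ventricular genes and DNA replication genes have the lowest medians, and macrophage genes the highest.

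Markers of other cell types differed between the groups, and some of the lists above hold genes that those cells also express. Of 32 macrophage and leukocyte genes, 30 were higher in 4-week iCMs and 0 lower (median 2.17). The list mean ran from 9.04 to 9.15 on the 4-week iCM arrays, against 6.63 to 6.79 on the cardiomyocyte arrays. It was higher still on the arrays of 4-week GFP- cells (11.57 to 11.65) and of fibroblasts (11.19 to 11.40). Lyz2, a lysozyme of myeloid cells, had 11.66, 11.71 and 11.82 in 4-week iCMs, against 7.00, 6.57 and 6.70 in cardiomyocytes, 31.5-fold higher (adjusted p = 8.12e-18). Adgre1, the F4/80 antigen, was at 9.13, 9.23 and 10.04 in 4-week iCMs, against 5.54, 5.88 and 5.38 in cardiomyocytes. The cardiomyocyte arrays were not above background, so the gene was at least 9.92-fold higher (adjusted p = 1.3e-11). Ptprc, the leukocyte antigen CD45, was at 8.90 in 4-week iCMs, against 7.09 in cardiomyocytes (1.81 ± 0.13). The members that were not called were the scavenger receptor Cd163 (0.06 ± 0.10, adjusted p = 0.702) and the lipid receptor Trem2 (0.06 ± 0.13, adjusted p = 0.79).

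Further macrophage genes were among the largest rises of all genes. Ms4a7 and Wfdc17 were at least 16.9-fold and 14.4-fold higher. The complement receptor C3ar1, the leukocyte actin-bundling protein Lcp1 and the lysosomal glycoprotein Gpnmb were 22.6-fold, 19.3-fold and 16.1-fold higher. For C3ar1, Lcp1 and Gpnmb the 4-week iCMs averaged 11.22, 11.76 and 10.21, against 12.95, 12.45 and 10.85 in fibroblasts. Over the list, 0 of 32 were higher and 31 lower in 4-week iCMs than in fibroblasts, where 14.3% and 15.2% of all genes were. Against 4-week GFP- cells the counts were 0 and 31, where 17.2% and 17.1% of all genes were called. Of the MHC class II genes 1 of 6 rose against cardiomyocytes, a share near that of all genes (19.0%). It was H2-DMa (0.85 ± 0.15), and H2-Ab1, H2-Eb1 and Cd74 did not pass.

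Endothelial genes ran the other way. Of 24, 20 were lower in 4-week iCMs and 2 higher (median -0.81), and the list mean ran from 7.29 to 7.42 in 4-week iCMs, against 8.31 to 8.38 in cardiomyocytes and 7.23 to 7.28 in fibroblasts. Cdh5, the cadherin of endothelial junctions, had 7.50, 7.44 and 7.59 in 4-week iCMs, against 10.51, 10.54 and 10.39 in cardiomyocytes, 7.86-fold lower (adjusted p = 1.13e-13). Pecam1 was at 6.91 against 9.03 (-2.12 ± 0.14), and the angiopoietin receptor Tek and Ramp2, a partner of the adrenomedullin receptor, fell by 2.25 ± 0.16 and 2.26 ± 0.12. The genes that rose were the VEGF receptor Flt1 (0.92 ± 0.16) and endoglin, Eng (0.41 ± 0.14), whose call was lost without iCM replicate 1 or 2 or any 1 cardiomyocyte replicate (adjusted p = 0.0564 to 0.0888). Fabp4, the fatty-acid-binding protein of capillaries, adipocytes and macrophages, was 9-fold lower, and Rgs5, a pericyte marker, 8.1-fold lower, at 6.16, 6.09 and 5.97 in 4-week iCMs, against 9.48, 9.16 and 8.63 in cardiomyocytes. Of 4 erythroid genes measured singly, 1 fell, Alas2 (-0.49 ± 0.12), which makes the first intermediate of haem, and 2 fell without iCM replicate 1. Probe sets shared by the beta-globin genes averaged 6.18 and 6.20 in 4-week iCMs, against 12.12 and 11.96 in cardiomyocytes. How much these other cells contribute to the lists that they share with cardiomyocytes, such as fatty acid uptake, was not tested.

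**Figure D4:**
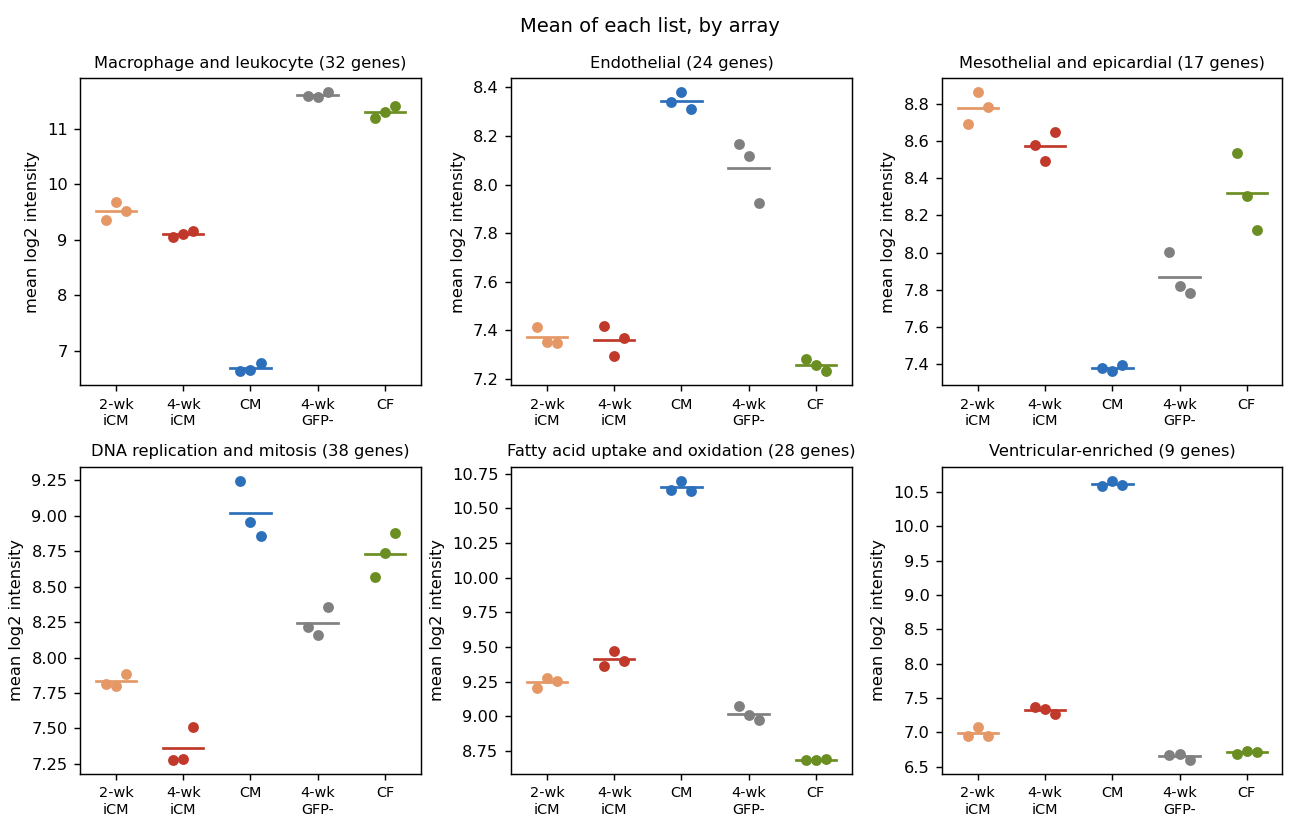
Mean log2 intensity over the genes of 6 lists on each array, by group, with 3 arrays (points) and their mean (bar) for 2-week iCMs, 4-week iCMs, cardiomyocytes (CM), 4-week GFP- cells and cardiac fibroblasts (CF). Vertical axes differ between panels and do not start at 0. The 4-week iCMs lie above cardiomyocytes and below fibroblasts for macrophage genes, and below both for DNA replication genes.

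Mesothelial and epicardial genes were higher in 4-week iCMs, 12 of 17 rising and 0 falling (median 0.89). Upk1b, a uroplakin, had 11.70, 11.93 and 12.12 in 4-week iCMs, against 6.97, 6.92 and 6.75 in cardiomyocytes. It was 32.7-fold higher than in cardiomyocytes (adjusted p = 4.53e-12) and also exceeded its fibroblast mean of 9.60. Msln, mesothelin, was at 10.02, 10.11 and 10.36 in 4-week iCMs, against 7.14, 7.25 and 7.04 in cardiomyocytes (3.02 ± 0.17, adjusted p = 2.82e-11), against a fibroblast mean of 7.62. Upk3b rose by 1.91 ± 0.21 and the retinoic-acid-forming enzyme Aldh1a1 by 2.90 ± 0.18. The list mean ran from 8.49 to 8.65 in 4-week iCMs, against 7.36 to 7.40 in cardiomyocytes and 8.12 to 8.54 in fibroblasts.

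Some of the largest rises belong to genes that were lower in fibroblasts and in cardiomyocytes alike. Scg2, secretogranin II of secretory granules, had 11.94, 12.15 and 12.12 in 4-week iCMs, against 6.74, 6.52 and 6.93 in cardiomyocytes (40.6-fold higher, adjusted p = 2.12e-13), beside a fibroblast mean of 7.40. Anxa8, an annexin, was at 11.51, 11.58 and 11.66 in 4-week iCMs, against 6.24, 6.59 and 6.31 in cardiomyocytes (36.8-fold, adjusted p = 2.42e-15), beside 6.66 in fibroblasts. The tetraspanin Tspan8 was 29.4-fold, the fibulin Efemp1 23.5-fold and the mast cell protease Mcpt4 18.6-fold higher. For these 5 genes the means in 4-week GFP- cells were 9.20, 8.87, 10.25, 8.76 and 7.24, each above the fibroblast mean and below that of 4-week iCMs.

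Matrix genes did not move as 1 group. Of 44 collagen chains, 8 rose and 8 fell (median -0.04), shares near those of all genes (19.0% and 16.1%). The number of rises dropped to 4 or 5 when iCM replicate 1 or 3 or cardiomyocyte replicate 2 or 3 was left out. Col1a2 and Col3a1, chains of the fibrillar collagens I and III, fell by 1.11 ± 0.12 and 0.93 ± 0.10, Col1a1 did not pass (-0.21 ± 0.12, adjusted p = 0.202), and Col12a1, a collagen of fibril surfaces, rose by 2.54 ± 0.15. Proteoglycans and other matrix genes fell in 16 of 28 cases and rose in 7. Aspn, asporin, was at 5.38, 5.18 and 5.18 in 4-week iCMs, against 11.64, 11.58 and 11.34 in cardiomyocytes, at least 41.1-fold lower (adjusted p = 4.37e-17). Dpt, dermatopontin, was at 5.72, 5.26 and 6.14 in 4-week iCMs, against 11.97, 11.78 and 11.61 in cardiomyocytes, at least 49.4-fold lower (adjusted p = 3.24e-15). Postn, periostin, which is secreted by fibroblasts and valve cells, had 6.99, 7.43 and 6.61 in 4-week iCMs, against 12.24, 12.23 and 12.01 in cardiomyocytes, 35.5-fold lower (adjusted p = 3.11e-11), and the keratan sulphate proteoglycan Lum was 10.5-fold lower.

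These 4 genes, named for their large falls, are expressed by fibroblasts, and the cardiomyocyte arrays carried them at levels close to or above those of the cardiac fibroblast arrays. Means of 11.52, 11.79, 12.16 and 10.21 for Aspn, Dpt, Postn and Lum in cardiomyocytes stand beside 8.78, 11.86, 11.51 and 8.91 in fibroblasts. In the list of fibroblast identity genes 4 of 16 were higher and 6 lower in 4-week iCMs, beside 19.0% and 16.1% of all genes. The list mean ran from 8.37 to 8.46 in 4-week iCMs, against 8.41 to 8.68 in cardiomyocytes and 9.32 to 9.58 in fibroblasts, so that as a list these genes were lower in cardiomyocytes than in fibroblasts. Pdgfra, a growth factor receptor, averaged 8.89 in cardiomyocytes, beside 10.69 in fibroblasts. Cd34, of fibroblasts and endothelium, was 9.37-fold lower in 4-week iCMs than in cardiomyocytes and Pdgfra fell by 1.38 ± 0.12, whereas Thy1 and the calcium-binding S100a4 were higher by 1.69 ± 0.21 and 3.79 ± 0.08. S100a4, also abundant in macrophages, had 12.20, 12.35 and 12.16 in 4-week iCMs, against 8.51, 8.45 and 8.37 in cardiomyocytes. Whether fibroblasts among the cardiomyocytes account for these differences was not tested.

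Among proteases and their inhibitors 8 of 22 rose and 6 fell. Mmp12, the macrophage elastase, was 11.1-fold higher (10.75 against 7.28), Timp1 and Timp3 rose by 2.17 ± 0.15 and 1.65 ± 0.16, and Mmp2, gelatinase A, fell by 1.53 ± 0.17. In the basement membrane 4 of 12 rose and 3 fell, beside 19.0% and 16.1% of all genes. The rises dropped to 2 when the 6 arrays were fitted alone or without replicate 1 or 3 of either group. The nidogens parted, Nid2 rising to 11.48 in 4-week iCMs, against 8.78 in cardiomyocytes, and Nid1 falling to 7.11, against 8.71. The laminin chains Lama4 and Lamb2 differed by -0.70 ± 0.13 and 0.47 ± 0.11, and Col4a6, a chain of basement membrane collagen, rose by 1.03 ± 0.11. Of 17 smooth muscle and pericyte genes 8 rose and 4 fell. The actin-binding Tagln and Cald1 were 9.56-fold and 4.46-fold higher, while calponin Cnn1 fell by 1.82 ± 0.25.

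DNA replication and mitosis genes were lower almost throughout, 36 of 38 falling and 0 rising (median -1.47). The list mean ran from 7.28 to 7.51 in 4-week iCMs, against 8.85 to 9.25 in cardiomyocytes and 8.57 to 8.88 in fibroblasts. Mki67, an antigen of cycling cells, had 6.51, 6.54 and 6.97 in 4-week iCMs, against 9.62, 9.19 and 9.15 in cardiomyocytes, 6.26-fold lower (adjusted p = 3.98e-11). Bub1, a kinase of the spindle checkpoint, was 10.4-fold, topoisomerase Top2a 9.34-fold, cyclin Ccna2 8.22-fold and the spindle motor Kif11 8.18-fold lower. A second Top2a probe set differed by only -0.41 and was not called (adjusted p = 0.173). For all 5 genes the 3 4-week iCM arrays lay below the 3 cardiomyocyte arrays.

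The list of cell cycle inhibitors and p53 targets, which also holds the D-type cyclins Ccnd1, Ccnd2 and Ccnd3, had 10 of 16 genes higher and 4 lower. Trp53inp1, a p53-induced protein, had 10.87, 11.03 and 10.99 in 4-week iCMs, against 8.26, 8.75 and 8.58 in cardiomyocytes (2.44 ± 0.14, adjusted p = 3.01e-11), and Mdm2, which marks p53 for degradation and is itself a p53 target, rose by 1.46 ± 0.08. Cyclin D1 (Ccnd1), which drives entry into the cycle, rose by 1.46 ± 0.11. Ccnd2 lay at 11.68, 11.73 and 11.73 in 4-week iCMs, against 10.76, 10.65 and 10.55 in cardiomyocytes, and the arrays of Ccnd3 overlapped. The imprinted inhibitor Cdkn1c fell by 0.51 ± 0.10, and the inhibitor Cdkn2c, which dividing cells also express, fell by 1.45 ± 0.11. Other inhibitors went both ways. Cdkn1b had 8.6, 8.6 and 8.4 in 4-week iCMs, against 9.2, 9.3 and 9.1 in cardiomyocytes. For Cdkn2d the values were 7.4, 7.3 and 7.3, against 7.9, 7.7 and 7.8. Higher in 4-week iCMs were Cdkn2b (8.6, 8.4 and 8.5, against 7.2, 7.5 and 7.4) and Cdkn2a (7.6, 7.8 and 7.8, against 7.2, 7.1 and 7.0). Cytosolic ribosomal protein genes stayed near the median, with 6 of 57 higher and 2 lower, and these counts moved with the normalization (22 higher with quantile, 3 higher and 8 lower with cyclic loess). The 2 called lower were the rare paralogs Rps4l (-1.03 ± 0.10, with a second probe set at -0.39) and the muscle form Rpl3l (-0.93 ± 0.09). Among those called higher were Rps27l, a p53 target (0.74 ± 0.09), and Rpl26 (0.49 ± 0.12).

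Inflammatory and stress genes were higher as lists, beside the higher macrophage genes. Of cytokines, chemokines and acute phase genes 15 of 28 rose and 2 fell (median 0.57). Saa3, an acute phase protein made by macrophages and stromal cells, had 11.70, 11.99 and 12.12 in 4-week iCMs, against 5.83, 5.69 and 5.75 in cardiomyocytes and was at least 55-fold higher (adjusted p = 4.87e-15), the largest rise of all genes. The chemokines Ccl2, Cxcl2 and Ccl3 rose by 2.22 ± 0.13, 2.09 ± 0.14 and 2.04 ± 0.11, and lay below their fibroblast means (10.27, 8.63 and 8.86 in 4-week iCMs, against 12.00, 9.77 and 12.05 in fibroblasts). The genes that fell were the stromal chemokine Cxcl12 (-0.99 ± 0.20) and the interleukin Il6 (-0.62 ± 0.19, adjusted p = 0.0156), whose call was lost with cyclic loess (0.0581) and without iCM replicate 1 (0.076) or cardiomyocyte replicate 1 (0.0659). Of 18 interferon response genes 10 rose and 0 fell (1 without cardiomyocyte replicate 3). Usp18, which dampens interferon signalling, rose by 2.02 ± 0.16, the RNA sensors Ifih1 and Ddx58 by 1.71 ± 0.14 and 1.69 ± 0.12, and Ifit3 by 1.60 ± 0.25. Immediate early genes rose in 12 of 21 cases and fell in 2, led by Btg2 (1.77 ± 0.12), an antiproliferative p53 target, with Zfp36, Ier3 and Dusp1 between 0.85 and 0.93. Only Btg2 reached 2-fold, 7 genes were not called, and the lowest difference was that of Jun (-0.54).

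Among genes of protein and oxidative stress, 11 of 19 rose and 3 fell. Asns, asparagine synthetase, a target of the amino acid response, had 10.42, 10.53 and 10.42 in 4-week iCMs, against 8.07, 7.24 and 6.76 in cardiomyocytes, 8.57-fold higher (adjusted p = 3.19e-10). Hmox1, haem oxygenase, which macrophages also express, rose by 2.07 ± 0.09, Ddit3, the stress factor CHOP, by 1.02 ± 0.10, and the metallothionein Mt1 fell by 1.06 ± 0.11. Of TGF-beta and BMP genes 16 of 31 rose and 3 fell. The ligand Tgfb3 had 10.30, 10.30 and 10.27 in 4-week iCMs, against 7.50, 7.32 and 7.30 in cardiomyocytes (2.91 ± 0.28, adjusted p = 4.39e-08). Tgfb2 and the matricellular Ccn1 rose by 2.05 ± 0.17 and 1.64 ± 0.17, while Bmp5 was at least 5.12-fold lower.

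Imprinted genes, many of which regulate fetal growth, fell in 11 of 18 cases and rose in 4 (median -0.47). The amino acid transporter Slc38a4 had 6.14, 6.08 and 6.45 in 4-week iCMs, against 11.22, 11.32 and 11.04 in cardiomyocytes, 31.4-fold lower (adjusted p = 2.8e-15), and Igf2, the fetal growth factor, 7.44, 7.28 and 7.27 in 4-week iCMs, against 10.73, 11.01 and 10.64 in cardiomyocytes, 11.1-fold lower (adjusted p = 6.08e-15). Both were near their fibroblast means of 6.13 and 7.21. The zinc finger factor Plagl1 fell by 2.69 ± 0.12, and the retrotransposon-derived Peg10 rose by 2.71 ± 0.20. Ddc, aromatic amino acid decarboxylase, part of whose locus is imprinted in the heart, was 26.6-fold lower (6.26 against 10.99). Bex1, a small brain-expressed protein, was at 8.30, 8.98 and 9.44 in 4-week iCMs, against 11.19, 11.18 and 10.96 in cardiomyocytes (-2.21 ± 0.19, adjusted p = 1.31e-08), with fibroblasts at 4.06.

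Lists of other cell types held single genes that moved far. In the neural list 3 of 7 rose and 1 fell, and Tubb3, the neuronal beta-tubulin, was 12.1-fold higher at 10.82, 10.91 and 11.44 in 4-week iCMs, against 7.91, 6.80 and 7.66 in cardiomyocytes. Its fibroblast mean of 10.97 was close to that of 4-week iCMs. The adhesion molecule Ncam1 and the myelin enzyme Cnp rose by 0.88 ± 0.17 and 0.45 ± 0.12, and Stmn2 fell by 0.39 ± 0.12, a call lost when iCM replicate 2 or 3 or cardiomyocyte replicate 3 was left out (adjusted p = 0.079, 0.0797 and 0.111). In the adipocyte and lipid list 4 of 14 rose and 4 fell, beside 19.0% and 16.1% of all genes. Scd1, the stearoyl-CoA desaturase, was 18-fold higher, with 10.57, 10.71 and 10.88 in 4-week iCMs, against 6.83, 6.68 and 6.13 in cardiomyocytes, and the fat cell receptor Pparg rose by 1.11 ± 0.19, whereas Cidea, a lipid droplet protein, and the triglyceride-forming Dgat2 fell by 1.84 ± 0.13 and 1.15 ± 0.12.

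The values of 2-week iCMs show how these differences stood earlier. Between the 4-week and the 2-week iCMs 4.29% of all genes were higher and 7.24% lower at 4 weeks. These contrasts use the same 4-week arrays as those against cardiomyocytes, so values are set side by side. Nebl averaged 6.96 in 2-week iCMs, 9.30 in 4-week iCMs and 12.19 in cardiomyocytes, a rise of 2.35 ± 0.11 over the 2 weeks (adjusted p = 1.02e-10). Pln, Ppargc1a and Hrc rose by 2.06 ± 0.25, 1.69 ± 0.21 and 1.44 ± 0.21, and Myh6 and Actn2 by 1.35 ± 0.21 and 1.15 ± 0.12, all towards the cardiomyocyte level. Of thin-filament genes 7 of 13 rose and 0 fell in this time, and of respiratory chain genes 18 of 80 rose and 0 fell.

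Genes with large gaps to cardiomyocytes moved unevenly in this time. Myl2 averaged 6.83 in 2-week and 7.05 in 4-week iCMs (0.23 ± 0.08, adjusted p = 0.0792), Myl3 7.14 and 7.14 (-0.0037 ± 0.10, adjusted p = 0.989), and Bmp10 4.67 and 4.69. Cox8b rose by 1.11 ± 0.16 (adjusted p = 0.000149) and Myh7 by 0.43 ± 0.08 (adjusted p = 0.00149), leaving differences of -4.73 and -4.32 to cardiomyocytes. Fsd2 rose by 0.82 ± 0.10 (adjusted p = 4.02e-05), and Dpt fell by 0.89 ± 0.19 (adjusted p = 0.00435). Nppa fell by 0.96 ± 0.21 between 2 and 4 weeks (adjusted p = 0.00504). DNA replication and mitosis genes fell further, 18 of 38 lower and 0 higher at 4 weeks, and of macrophage genes 15 of 32 fell and 0 rose. Mki67 averaged 7.64 in 2-week and 6.67 in 4-week iCMs (-0.97 ± 0.16, adjusted p = 0.000539), beside 9.32 in cardiomyocytes. Postn fell by 1.25 ± 0.30 over the same time (adjusted p = 0.0095), away from its cardiomyocyte mean of 12.16.

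**Figure D5:**
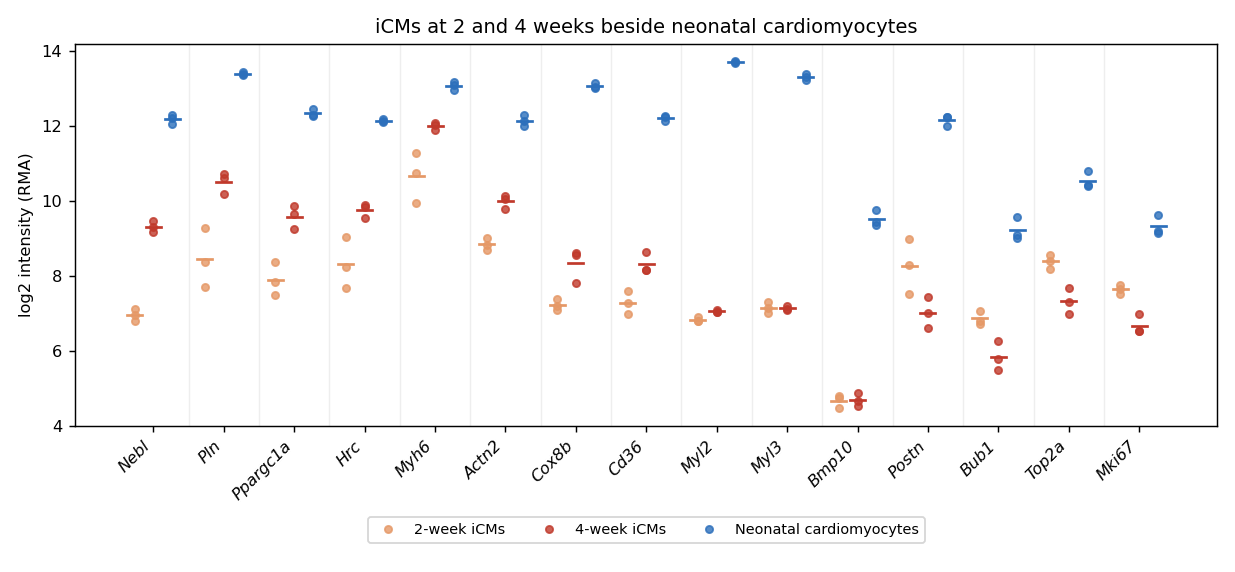
Log2 intensity of 15 genes on each array of 2-week iCMs, 4-week iCMs and neonatal cardiomyocytes, with a bar at each group's mean. Nebl, Pln, Ppargc1a, Hrc, Myh6 and Actn2 lie higher at 4 than at 2 weeks, Myl2, Myl3 and Bmp10 lie close to their 2-week values, and Postn, Bub1, Top2a and Mki67 lie lower at 4 weeks.

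Against fibroblasts, the same 4-week iCM arrays had 11 of 15 thick-filament genes higher and 1 lower, and 13 of 13 thin-filament genes higher and 0 lower. For respiratory chain genes the counts were 70 and 1 of 80, for fatty acid uptake and oxidation 18 and 1 of 28, and for ventricular-enriched genes 4 and 1 of 9. Of all genes, 14.3% were higher and 15.2% lower than in fibroblasts. Against 4-week GFP- cells the counts were 11 and 0 for the thick filament, 13 and 0 for the thin filament and 63 and 0 for the respiratory chain. There, 17.2% of all genes were higher and 17.1% lower.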

How the data were processed

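All 18 arrays (6 groups of 3) were mapped to samples by their labels, with 0 columns left over. The extract came from the PicoPure kit and was biotin-labelled with MessageAmp II chemistry, per the labels. Deposited log2 intensities were made by the authors with RMA, per the submitters' processing notes, and its version is not given in the sources used here. RMA subtracts background, equalises the distributions of the arrays and summarises the probes of a set, which can compress differences at both ends of the scale.

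Of 28682 probe sets, 21755 name 1 gene, 1592 several and 5335 none. A gene with several probe sets (997 genes) was read from the brightest on average, leaving 19912 genes to compare, and probe sets naming several genes or none stayed out. Genes on a list without a probe set of their own were not analysed here.

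The fit was a linear model for each gene in limma 3.58.1 under R 4.3.3, over the 18 arrays with 6 group means and no other term, moderated by eBayes. Tests were two-sided, with Benjamini-Hochberg adjustment over the 19912 genes and calls at an adjusted p under 0.05, and every adjusted p in the text comes from limma. Errors of differences are standard errors (SE) at n = 3 arrays per group, and so few arrays limit the precision. The script was tested on simulated data. Fold bounds set a group that is not above background at the higher of 6.16 and its own mean.

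The comparison, the 38 gene lists and the alternatives were chosen with earlier results of these data known, and list counts carry no test. Named genes are, among called genes without overlap between arrays, the 15 that rose most and the 15 that fell most (predicted and unnamed genes left out), up to 4 members of each list with the largest differences, every isoform partner, and 23 anchor genes. A further 20 were chosen after their values were seen. The inhibitors Cdkn1b, Cdkn2a, Cdkn2b and Cdkn2d, the cyclins Ccnd2 and Ccnd3 and the factor Jun were looked up later. They are not counted among the named genes, and no call is given for them. Alternatives were 2 further normalizations (quantile, cyclic loess), weighting of arrays, a prior that follows intensity, a fit of the 6 arrays alone, a minimum fold of 2, a filter on low signal, other uses of multiple probe sets, the replicate number as a block, and leaving out each array.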

Additional observations from a re-analysis of the deposited data

Results flagged for a closer look

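For 20 named genes the gap to cardiomyocytes differed between 2-week and 4-week iCMs, by the limma contrast of those iCM groups (called, and at least 2-fold). Higher at 4 weeks (log2 difference, 4-week minus 2-week iCMs) were Nebl by 2.35, Pln by 2.06, Ppargc1a by 1.69, Myl1 by 1.54, Hrc by 1.44, Myh6 by 1.35, Lum by 1.22, Tnnt3 by 1.16, Actn2 by 1.15, Cox8b by 1.11, Cd36 by 1.04, Pvalb by 1.04 and Myom1 by 1.01. For Tnnt3 and Pvalb this moved the 4-week iCMs further above the cardiomyocytes. Myl1 lay above cardiomyocytes at 4 weeks, while its 2-week mean was below theirs with overlapping arrays. For the others the change brought the iCMs closer to cardiomyocytes from below. Lower at 4 weeks were Ccl2 (-1.28), Postn (-1.25), Nid1 (-1.22), Top2a (-1.06), Ccna2 (-1.04), Bub1 (-1.02) and Timp1 (-1.0). Of these, Ccl2 and Timp1 came closer to cardiomyocytes from above, and the other 5 moved further below them.

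Probe sets that name several genes were outside the comparison, and 12 of them differed at least 8-fold between 4-week iCMs and cardiomyocytes. Probe sets shared by the beta-globin genes differed by -5.94 and -5.76, and those shared by the alpha-globin genes by -5.03 and -4.92, so globin signal was lower on the 4-week iCM arrays. One shared by Cpt1b, the muscle carnitine palmitoyltransferase, and Gm44502 differed by -3.28. One shared by Cdkn1a, the p53-induced inhibitor p21, and 4930567H12Rik differed by 3.24. Those shared by the Bcl2a1 genes, anti-apoptotic and common in leukocytes, differed by 3.32 and 3.52. Those shared by Gsta1, Gsta2 and predicted copies, glutathione transferases, differed by 3.61, 3.67, 5.22 and 5.62. Which of the named genes carries each signal cannot be told apart. Of all 6927 probe sets outside the comparison 922 were called, among them 12 with no gene name at 8-fold or more.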

How the results depend on the processing

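No named gene that was called in the main fit or in an alternative changed direction between them, under any of the 16 alternatives. Changes of sign in genes called in neither were not counted. Of the 188 called named genes, 181 kept direction and call under the 15 alternatives other than a minimum fold. In the alternative that fitted all probe sets, each named gene was read from the same probe set as in the main fit. Its other probe sets could not change its call there, and those of Tmod1 and Top2a were not called (limma, adjusted p = 0.307 and 0.173). A minimum fold of 2 left 865 genes higher and 795 lower and removed 43 of the named calls. Leaving out 1 array at a time gave 3348 to 3595 genes higher and 2819 to 3090 lower. The other normalizations gave 3896 and 3716 (quantile) and 3630 and 3757 (cyclic loess), so the excess of rises over falls turned round with cyclic loess. Deviations of same-numbered iCM and cardiomyocyte arrays from their group means correlated at r = -0.13, 0.24 and -0.02. Arrays with unlike numbers ran from -0.31 to 0.31. With 3 arrays a group, these values cannot decide whether the numbers pair the arrays. With a replicate block the counts were 3845 higher and 3290 lower, and no named call changed.

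Calls that depended on the setting were those of Sln, Eng, Kcnj5, Tbx20, Il6 and Stmn2, given with their values in the text, and that of Cnp, lost with array weights (adjusted p = 0.0841). Genes not called in the fit of all groups were called under some settings: Actc1, Myl4 and Nkx2-5 as given in the text, Atp2a2 lower with cyclic loess and with an intensity trend, Col1a1 lower with quantile and cyclic loess normalization, Cox8a and Slc4a1 lower with array weights and 1 other setting each, and Cd74 higher with array weights. The cause was not tested. With 3 arrays a group, the number of arrays limits precision, differences to a group at background are lower bounds, and Actc1 and Tnnt2, and Myl2 in cardiomyocytes, lie near the top of the scale. Introduced copies of the reprogramming factors, cell purity and chamber of origin were not measured.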
